A study of Mus musculus with 3 samples.

Results

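Daam1, Parvb, Tns1, Capzb and Tnik encode proteins of the actin cytoskeleton and of focal adhesions, and each has TBX1 ChIP-seq peaks within 300 kb of its gene body in whole mouse embryos. The genes were chosen by these measured peaks, so the presence of a peak near each gene is a description and was not tested. All peaks of the 3 replicate lists and all regions of the consensus list within 300 kb of a gene body were taken. Peaks of different lists that overlapped by at least 1 bp were joined into 1 region. This gave 7 of the 711 joined regions, 18 of the 1088 peaks and 5 of the 255 consensus regions. Daam1 had 3 regions and the other genes 1 each.

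The embryos were at embryonic day 9.5 and of mixed strain, and 20 embryos were pooled for each of the 3 samples. They were double homozygous for Tbx1 3'-Avi, which adds the short Avi peptide to the end of TBX1, and for Gt(ROSA)26Sortm1.1(BirA)Mejr, an allele of an FVB;129P2 strain background (line suffix /J) that places the bacterial biotin ligase BirA at the ROSA26 locus. BirA puts biotin on the peptide, and TBX1 with its crosslinked DNA is then captured on streptavidin. There was 1 condition, every sample carried both alleles, and embryos with BirA but no tag were not analysed here. Because whole embryos were pooled, the cell type in which a region was bound cannot be told, and few bound cells and weak binding in many cells cannot be told apart. The genes' own expression was not analysed here.

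TBX1 is a T-box transcription factor of the embryonic pharyngeal apparatus, where it acts in pharyngeal mesoderm, endoderm and ectoderm. Cells of these tissues change shape and move as the arches and the poles of the heart tube form, and such movement needs actin filaments that are built, capped and tied to integrins at the cell surface. Daam1 is a formin that nucleates and elongates actin filaments downstream of Dishevelled in planar cell polarity signalling. Capzb is the beta subunit of capping protein, which closes the barbed end of the filament. Parvb (beta-parvin) binds integrin-linked kinase and actin at focal adhesions, Tns1 (tensin 1) joins integrin tails to actin, and Tnik is a kinase that acts in Wnt signalling and on the actin cytoskeleton.

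The sequence under each region is shown because the regions range from a simple repeat to sequence in which few short words recur. Each is the plus strand of NCBIM37 (mm9), 5′ to 3′, centred on the summit of the peak that ranks highest in its own list. Capitals mark a searched word or its reverse complement, and the words are described with their frequencies further on. The distal upstream region of Daam1 is chr12:72644704-72644853, with TGATTGAT in capitals as its reverse complement. The proximal upstream region is chr12:72910122-72910271, with TGACAG as its reverse complement. The intronic region is chr12:72967453-72967752, shown over 300 bases to reach the word TAATTA. The Parvb region is chr15:84050496-84050645, with GGAATG and TGATTGAT as reverse complements. The Tns1 region is chr1:73879315-73879464, the Capzb region chr4:138796379-138796528 and the Tnik region chr3:28088400-28088549, and none of these 3 holds a searched word.
Daam1 upstream, distal: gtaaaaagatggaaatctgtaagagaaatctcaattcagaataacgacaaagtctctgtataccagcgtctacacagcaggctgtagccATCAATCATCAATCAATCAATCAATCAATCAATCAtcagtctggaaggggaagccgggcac
Daam1 upstream, proximal: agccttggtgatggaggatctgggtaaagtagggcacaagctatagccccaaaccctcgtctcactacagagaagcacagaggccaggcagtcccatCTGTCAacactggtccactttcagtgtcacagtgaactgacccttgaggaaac
Daam1 intron: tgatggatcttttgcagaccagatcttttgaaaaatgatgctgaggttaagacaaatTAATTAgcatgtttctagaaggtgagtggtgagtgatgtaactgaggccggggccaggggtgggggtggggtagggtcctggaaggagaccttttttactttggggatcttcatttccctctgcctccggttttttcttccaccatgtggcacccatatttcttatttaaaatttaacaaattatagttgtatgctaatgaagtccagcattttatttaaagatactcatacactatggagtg
Parvb upstream: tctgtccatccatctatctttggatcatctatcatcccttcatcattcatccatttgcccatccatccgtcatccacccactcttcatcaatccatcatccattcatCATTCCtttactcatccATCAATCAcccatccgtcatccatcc
Tns1 downstream: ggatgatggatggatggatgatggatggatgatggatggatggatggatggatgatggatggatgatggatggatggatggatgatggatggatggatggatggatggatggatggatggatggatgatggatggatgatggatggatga
Capzb intron: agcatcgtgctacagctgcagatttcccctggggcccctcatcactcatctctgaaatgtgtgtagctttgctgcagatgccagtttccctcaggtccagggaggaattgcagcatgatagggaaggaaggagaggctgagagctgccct
Tnik upstream: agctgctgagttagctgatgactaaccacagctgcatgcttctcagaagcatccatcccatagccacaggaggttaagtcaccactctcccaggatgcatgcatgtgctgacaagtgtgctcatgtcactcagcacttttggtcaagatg
The Tns1 sequence is a run of GGAT units from end to end, the Parvb sequence holds many separated copies of CATCC, and the distal Daam1 sequence has 1 short run of ATCA units. The other 4 sequences show no such run.

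By the GENCODE vM1 annotation, 4 regions lay upstream of their gene, 2 in introns and 1 downstream. Of the 7 summits, 0 lay within 1 kb of the start site of a protein-coding gene, against 10.7% of all 711. In introns of protein-coding genes lay 2 of the 7, against 39.0% of all, and between such genes the other 5, against 55.7% of all. The median distance to the nearest such start site was 35.5 kb for the 7 and 31.5 kb for all, and with 7 regions nothing is read from these differences. The shortest distance from a summit to a start site of the same gene was 7.16 kb, at Capzb, and the longest was 287286 bp, at the distal Daam1 region. In 6 of the 7 regions the protein-coding gene with the nearest start site was the gene itself, a share with no counterpart over all regions because the gene was chosen first. The exception was the distal Daam1 region, which lay 233.8 kb from the start of Dact1, a Dishevelled-binding protein of the Wnt pathway, and was therefore nearer to Dact1 than to Daam1. It was also the region nearest to the limit of 300 kb from within. The next region beyond the limit lay 319.8 kb past the 3′ end of Capzb (chr4:139167525-139167774). It was in the consensus list and had peaks in all 3 lists, with fold enrichments of 8.23, 8.75 and 5.13.

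**Figure D1:**
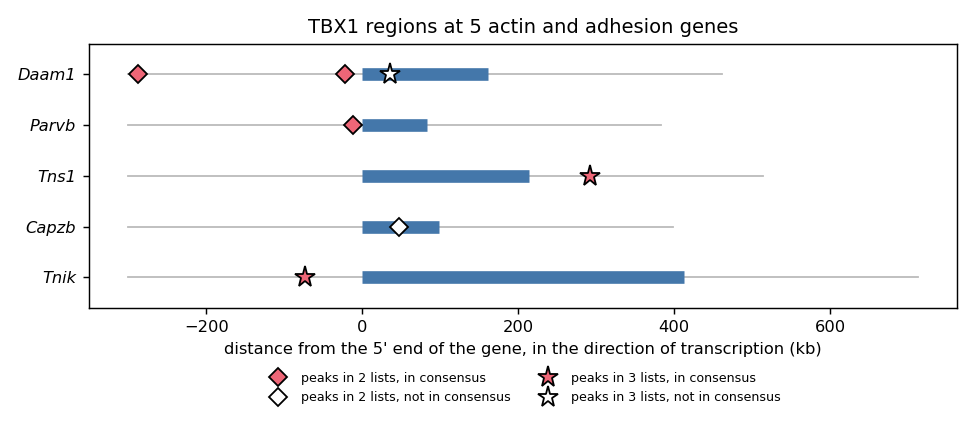
Position of the 7 regions in kb from the 5′ end of each gene, read in the direction of transcription. Blue bars are gene bodies, grey lines the 300 kb searched on either side, diamonds regions with peaks in 2 lists and stars regions with peaks in 3 lists. Open symbols mark the 2 intronic regions, at Daam1 and Capzb, which are not in the consensus list.

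The fold enrichment of a peak is the ratio of ChIP signal to local background at its summit. Its rank is given as a percentile, the share of the other peaks of the same list that were lower, with a tied peak counted at 50%. The lists held 146, 646 and 296 peaks in replicates 1, 2 and 3. None of these lengths equals a peak count that the study's text gives for a replicate. The replicate numbers are those of the sample labels and may not be the replicate numbers of the study's own text. The fold enrichments of the lists were not put on a common scale by the authors, so levels were not compared between lists. The lists do not give reads per peak, so no counting error can be attached to a fold enrichment. The spread between lists is the only error available. All 7 regions had peaks in at least 2 lists, as had 39.2% of the 711 joined regions, and 3 had peaks in all 3 lists, as had 13.1%. The rule that chose the genes used these peaks, so nothing is read from that difference.

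Daam1 (chr12:72932065-73093354, plus strand) had regions on both sides of its start site, with peaks from the 26.2 to the 76.4 percentile of their lists. The distal region (chr12:72644626-72644902) lay 287.2 kb upstream, with no start site of another protein-coding gene between. Its fold enrichment was 6.62 in replicate 1 (−log10 q 6.18) and 8.08 in replicate 2 (−log10 q 11.0), and replicate 3 had no peak. These peaks stood at the 53.1 and 76.4 percentiles, or places 65 of 146 and 152 of 646. Their summits were 20 bp apart. The consensus region there begins 31 bp inside the joined peaks and ends 44 bp beyond them.

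The proximal Daam1 region (chr12:72910106-72910304) lay 21.8 kb upstream. It had a fold enrichment of 6.21 in replicate 1 (−log10 q 5.27) and 6.48 in replicate 3 (−log10 q 7.34), and no peak in replicate 2, the longest list. The percentiles were 44.5 and 59.8. The summits lay 25 bp apart, and the word TGACAG was centred on the summit of replicate 1 and 24 bp from that of replicate 3.

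The third Daam1 region (chr12:72967379-72967644) lay in intron 1, which spans 64.4 kb in the annotated transcript with 25 introns. The summit was 35.5 kb from the start site and 29.1 kb from the nearest exon. It was the only region of Daam1 with a peak in every list, and it is absent from the consensus list. The fold enrichments were the lowest of the 3 regions, at 4.97, 5.56 and 5.46 in replicates 1, 2 and 3, with −log10 q of 2.68, 5.49 and 4.70. The percentiles were 26.2, 35.0 and 33.4, so that the lists placed the region alike, in the lower part of each. The summits were less alike and spread over 160 bp. The word TAATTA lay 2 bp from the summit of replicate 3, 70 bp from that of replicate 1 and 90 bp from that of replicate 2.

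The Capzb region (chr4:138796341-138796499) was the other intronic region and was also absent from the consensus list. Capzb (chr4:138748814-138847733, plus strand) has 11 annotated transcripts with 11 starts, and the summit lay 47.6 kb from the outermost start and 7.16 kb from the nearest. It was in intron 2 in all 8 transcripts that span it, 1.54 kb from an exon in an intron of 18.3 kb. The fold enrichment was 5.38 in replicate 1 (−log10 q 3.50) and 7.03 in replicate 2 (−log10 q 8.14), with no peak in replicate 3. The percentiles were 30.7 and 64.0, and the summits were 86 bp apart. At 159 bp the joined region was the narrowest of the 7, against a median of 227 bp over all joined regions.

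The absence of both intronic regions from the consensus list can be set beside the rest of the series. Of the 279 regions with peaks in at least 2 lists, 217 overlapped a consensus region and 62 (22.2%) did not, and of the 93 regions with peaks in all 3 lists 6 (6.45%) did not. The Daam1 intronic region is 1 of these 6. The mean percentile over lists had a median of 62.8 in the 217 regions and 28.7 in the 62, and it was 31.5 for the Daam1 and 47.4 for the Capzb intronic region. The consensus list also holds 35 regions with a peak in only 1 of the deposited lists, so it cannot be rebuilt from the deposited lists by overlap, and the deposited lists may not be the versions from which it was made or that the study's text counts. Blacklisted regions were removed from it by the authors, and the blacklist was not used here, so whether the intronic regions were removed for that reason was not tested.

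The Parvb region (chr15:84050451-84050740) lay 11.7 kb upstream of the gene (chr15:84062473-84146118, plus strand) and had the widest disagreement between lists. The fold enrichment was 10.9 in replicate 2 (−log10 q 19.2) and 4.11 in replicate 3 (−log10 q 3.56), and replicate 1 had no peak. The peak of replicate 2 was at place 44 of 646, at the 92.8 percentile, and the peak of replicate 3 at place 257 of 296, at the 12.7 percentile. The percentiles differed by 80.1 points, more than in 99.3% of the 279 regions with peaks in at least 2 lists, whose median range was 21.8 points. The summits were 17 bp apart, so the position was shared although the rank was not. The same region lay 103.7 kb upstream of Parvg, which encodes gamma-parvin.

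The Tnik region (chr3:28088385-28088667) lay 73.5 kb upstream of a gene of 412.6 kb (chr3:28162136-28574780, plus strand) with 16 annotated transcripts. It had peaks in all 3 lists and a consensus region of 308 bp. The fold enrichment was 8.69 in replicate 1 (−log10 q 11.2), 9.55 in replicate 2 (−log10 q 16.4) and 5.13 in replicate 3 (−log10 q 5.43). The percentiles were 85.2, 88.4 and 26.9, high in the first 2 lists and low in the last. The range of 61.4 points was larger than in 94.3% of the shared regions. The summits spread over 53 bp.

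The Tns1 region (chr1:73879196-73880115) stood apart from the other 6 in rank, width and sequence. It lay 76.7 kb past the 3′ end of Tns1 (chr1:73956805-74171021, minus strand), 291.6 kb from the outermost start of the gene and 95.7 kb from the nearest of its 3 annotated starts. The fold enrichment was 9.73 in replicate 1 (−log10 q 15.2), 9.83 in replicate 2 (−log10 q 23.4) and 10.7 in replicate 3 (−log10 q 19.6). Replicate 1 had another peak in the same region, with a fold enrichment of 5.61 (−log10 q 4.40) at the 33.1 percentile. The main peaks stood at the 89.3, 89.8 and 92.5 percentiles, which makes this the highest of the 7 regions by mean percentile, at 90.5, and the one with the narrowest range, at 3.23 points. The joined peaks covered 920 bp, the widest but 3 of the 711 regions, and the consensus region covered 1068 bp.

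**Figure D2:**
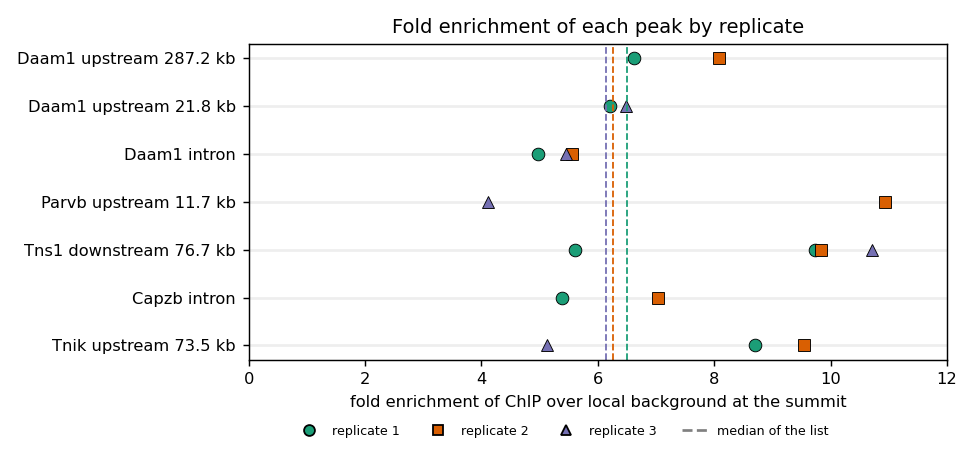
Fold enrichment over local background (horizontal axis) of each of the 18 peaks in the 7 regions. Circles, squares and triangles stand for replicates 1, 2 and 3, and dashed lines are the medians of all peaks of the list in the same colour. The 3 main Tns1 peaks lie between 9.73 and 10.7, and the Parvb peaks lie at 4.11 and 10.9.

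As a group the peaks were neither at the top nor at the bottom of their lists. In replicate 1 the 7 peaks ran from 4.97 to 9.73 with a median fold enrichment of 6.21, against 6.51 over the list. In replicate 2 the 6 peaks ran from 5.56 to 10.9 with a median of 8.82, against 6.25. In replicate 3 the 5 peaks ran from 4.11 to 10.7 with a median of 5.46, against 6.14. The median percentiles were 44.5, 82.4 and 33.4, so the group sat above the median of its list in replicate 2 and below it in the other lists. Over all 18 peaks the median percentile was 56.5, and 76.4 over the peaks of the 5 regions in the consensus list. Whole lists also hold peaks found in 1 list only, whereas all 7 regions had peaks in at least 2 lists. Among all 279 regions with peaks in at least 2 lists, the mean percentile over lists had a median of 57.2. It was 62.8 among the 217 of them in the consensus list. For the 7 regions the mean percentile ran from 31.5 in the Daam1 intron to 90.5 at Tns1, and no difference was tested.

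**Figure D3:**
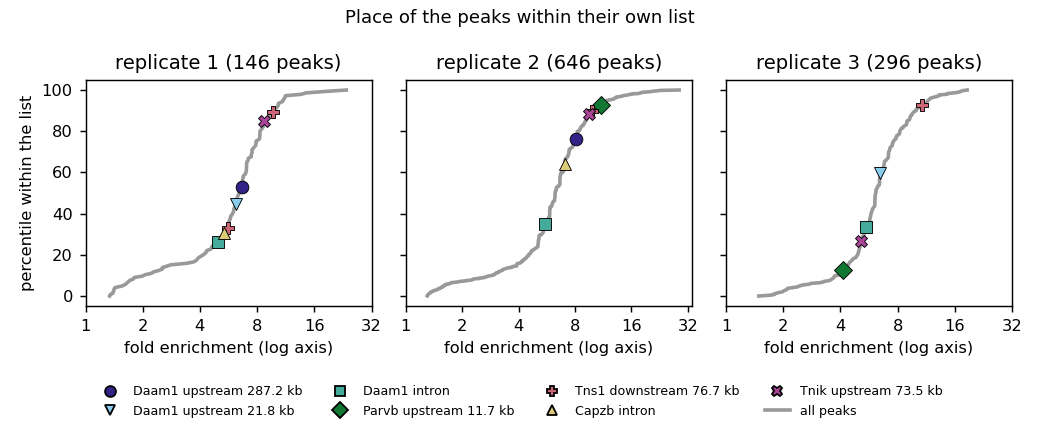
Percentile of each peak within its own list (vertical axis) against fold enrichment (log axis), with all peaks of the list as a grey line. The main Tns1 peaks are between the 89.3 and 92.5 percentiles in the 3 lists, the other Tns1 peak of replicate 1 is at 33.1, and the Parvb peak is at 92.8 in replicate 2 and 12.7 in replicate 3.

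The sequence of the Tns1 region is a simple repeat. In its window of 300 bp on the summit, 4.75% of the 6-base words were distinct, the third lowest value of the 711 windows, whose median was 92.2%. GGAT or its reverse complement covered 77.3% of the bases, against a median of 2.67%. Over the 920 bp of the joined peaks the plus strand held TGGATGGA 101 times, and only 27 of the 256 possible 4-base words occurred. A search of the genome with this window by blastn found 4330 other matches of at least 150 bp and 80% identity, while the windows of the other 6 regions had 0. Reads without a unique position had been removed by the authors, and mappability was not measured here, so its part in the Tns1 peaks was not tested.

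Such repeats recurred among the TBX1 regions. Under 50% distinct 6-base words were found in 75 of the 711 windows, of which 36 had peaks in at least 2 lists, 16 in all 3 lists and 30 were in the consensus list. Of all 711 regions, 279 (39.2%) had peaks in at least 2 lists and 93 (13.1%) in all 3, and no difference was tested. GGAT or its reverse complement covered more than 50% of the bases in 20 windows (2.81%). Of these 20, the Tns1 window included, 9 (45.0%) had peaks in all 3 lists, against 84 (12.2%) of the other 691, and the median of the mean percentile was 66.8 against 47.4.

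Among the other 6 regions, Parvb was the nearest to the Tns1 sequence. Its window had 62.7% distinct 6-base words, and 21.3% of its bases lay in GGAT or its reverse complement. The distal Daam1 window had 87.1% distinct words, and the Tnik, Daam1 intronic, proximal Daam1 and Capzb windows had 89.5%, 91.9%, 92.9% and 94.6%. The GC content of the 7 windows ran from 41.0% in the Daam1 intron to 54.0% at Tnik, on either side of the median of 50% over all windows.

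**Figure D4:**
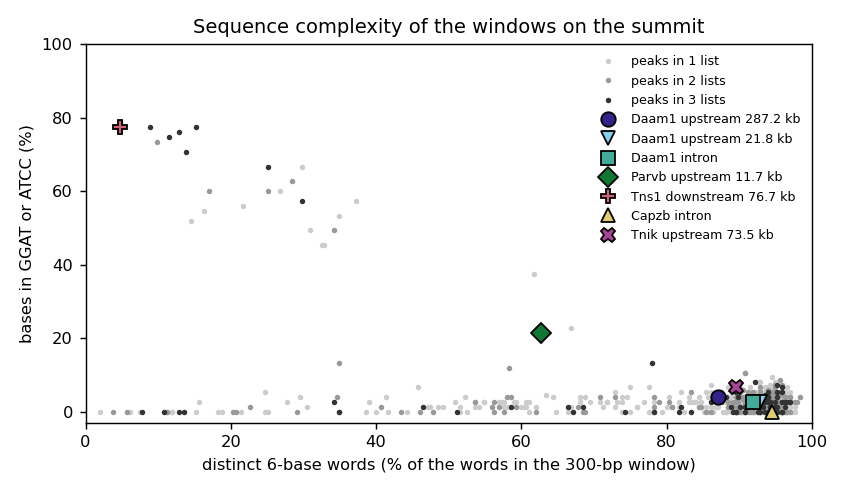
Share of distinct 6-base words (horizontal axis, %) and share of bases in GGAT or ATCC (vertical axis, %) in the 300-bp window on the summit of each of the 711 regions. Grey shades give the number of lists with a peak. The Tns1 window, at 4.75% and 77.3%, lies with a group of repeat windows, the Parvb window lies between, at 62.7% and 21.3%, and the other 5 lie with most windows.

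Each window of 300 bp was searched on both strands for 8 words known as sites of transcription factor families. TGACAG, the core of MEIS homeodomain sites and part of a composite T-box motif, was in 1 of the 7 windows, the proximal Daam1 window, and in 45.3% of all 711. Of the 279 regions with peaks in at least 2 lists, as all 7 had, 48.0% held TGACAG. In windows 5 kb to the right it was in 18.3%, and in 2 of the 7 next to the 7 regions. The count depended on the width and place of the window. In windows of 500 bp TGACAG was in 4 of the 7, the others being the distal Daam1, Capzb and Tnik windows at up to 232 bp from the summit, and in 54.3% of all. When replicate 2 was left out, the Capzb window moved to the summit of replicate 1 and included the word at 104 bp, which made 2 of 7 against 47.8% of the 343 regions left.

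The T-box word GGTGTGA was in 0 of the 7 windows, in 5.06% of all and in 3.94% of the windows 5 kb to the right. The composite of GGTG 1 base before TGACAG was in 0 of the 7, in 4.78% of all and in 0.141% of the windows 5 kb to the right. TGATTGAT, a word of PBX proteins with their HOX partners, was in 2 of the 7, the distal Daam1 and Parvb windows, in 7.59% of all and in 0.844% of the windows 5 kb to the right. Of the 279 regions with peaks in at least 2 lists, as all 7 had, 10.8% held TGATTGAT. At Daam1 it matched 7 overlapping times within 35 bp (chr12:72644793-72644827), 18 to 44 bp from the summit of replicate 2 and 38 to 64 bp from that of replicate 1. Of the 54 windows with the word, 11 held it at least 3 times. At Parvb it matched once among the CATCC copies, 52 bp from the summit of replicate 2. Overlapping matches in a repeat are not separate sites.

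GGAATG, the word of TEAD factors, was in 1 of the 7 windows (Parvb, 34 bp from the summit of replicate 2) and in 18.6% of all. In the windows 5 kb to the right it was in 3 of the 7 and in 15.3% of all. TAATTA, a homeodomain word, was in 1 of the 7 (the Daam1 intron) and in 5.49% of all, and in the windows 5 kb to the right it was in 1 of the 7 and in 7.88% of all. The GATA word AGATAA was in 0 of the 7 and in 13.6% of all, and in 15.6% of the windows 5 kb to the right. The CArG box, the site of the actin gene regulator SRF, was in 0 of the 7 and in 1.13% of all, as in the windows 5 kb to the right. Tns1, Capzb and Tnik had none of the 8 words in their windows. A match is a description of the letters, and a missing match says only that these letters are not in the window.

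The families and partners of the 5 genes were listed by textbook membership, 118 genes in 7 lists. A joined region lay within 300 kb of 32 of the 118 genes (27.1%), against 18.1% of all 22380 protein-coding genes. The 32 include the 5 chosen genes and Parvg, which was reached through the Parvb region alone. Without the 5 genes and the 7 regions it was 26 of 113 (23.0%), against 18.0% of the other protein-coding genes. At a limit of 100 kb this became 13 of 113 (11.5%) against 7.23%, and without the list of replicate 2 it became 14 of 113 (12.4%) against 9.65%. The 118 genes had a median length of 55.1 kb against 15.4 kb for all protein-coding genes. A longer gene gives a wider search, and the part of gene length in the shares was not tested. With regions in at least 2 lists it was 16 genes (13.6%) against 8.39% of all, and with regions in all 3 lists 7 genes (5.93%) against 3.12% of all. Without the 5 genes and the 7 regions these became 10 of 113 (8.85%) against 8.27%, and 4 of 113 (3.54%) against 3.07%, which is near the background.

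By role, and without the 5 genes and the 7 regions, 4 of 13 formins had a region in reach (30.8%), Daam2, which is the paralogue of Daam1, Fhod1, Fhod3 and Inf2. Among genes of filament capping and severing it was 5 of 26 (19.2%), among focal adhesion adaptors and kinases 8 of 36 (22.2%) and among integrins 6 of 26 (23.1%). The share over the other protein-coding genes was 18.0%, so the last 3 lists were near the background. The tensins had 2 of 3, Tns3 and Tns4, and the parvin, ILK and PINCH genes 0 of 6. The lists of parvins, tensins and formins are short, and nothing is read from their shares.

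**Figure D5:**
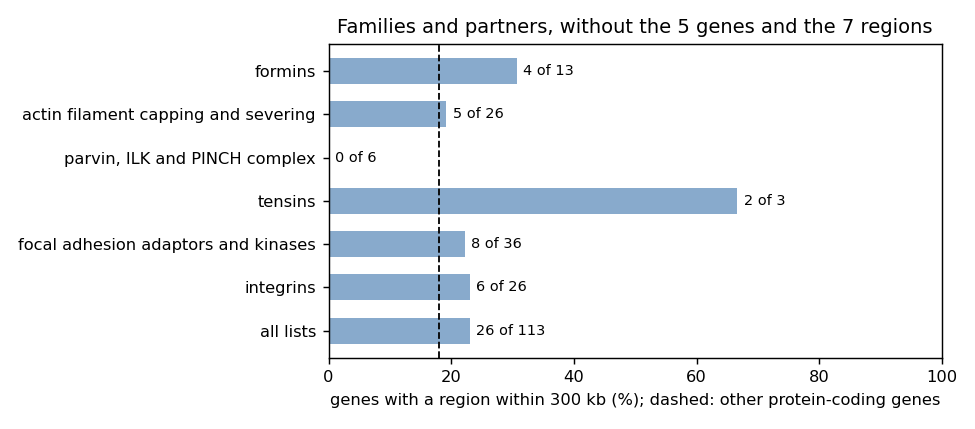
Share of genes (%) with a joined TBX1 region within 300 kb of the gene body in 6 lists of families and partners and over all lists, without the 5 genes and the 7 regions, with the number of genes at the end of the bar. The dashed line is the share of the other protein-coding genes, 18.0%. The bar over all lists gives 26 of 113 genes (23.0%).

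Without the 5 genes and the 7 regions, 4 of 113 listed genes (3.54%) had a region with peaks in all 3 lists. The share over the other protein-coding genes was 3.07%, so the count was near the background and these genes are only described. Fhod1, a formin, and Rltpr, a regulator of capping protein, share 1 such region (chr8:108043483-108043932), which lay 171.6 kb and 166.2 kb upstream of them. Its fold enrichments were 8.61, 16.1 and 8.92, at the 82.1, 98.1 and 83.4 percentiles. Lpp, a zyxin family adaptor of focal adhesions, had a region within the gene (chr16:24605530-24605899) with 8.61, 12.1 and 9.29, and its window had 34.2% distinct 6-base words. Itga5, the alpha subunit of the fibronectin receptor, had a region 38.7 kb downstream (chr15:103135622-103136045) with 7.02, 19.4 and 17.6, at the 60.7, 99.1 and 99.7 percentiles. In replicates 2 and 3 this region ranked above every region of the 5 genes.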

How the data were processed

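The authors performed TBX1 ChIP-seq on 3 samples of 1 condition. Trimmed reads were aligned by the authors with Bowtie2 2.3.4 (mm9), and only uniquely mapped, concordant pairs without PCR duplicates were kept. MACS2 2.1.2.1 was run on each sample against input. In the lists deposited by the authors, fold enrichment is the ratio of ChIP to local background at a summit, and each p-value and q-value is given as −log10. The deposited score repeats the q-value and was not used. The consensus list was made by the authors with BEDTools 2.29 from regions common to at least 2 samples, without blacklisted regions. The study gives sequencing depths under its own replicate numbers, which neither the labels nor the lists tie to these lists, so no depth was assigned to a list and the precision of a peak is unknown.

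Lists carry the replicate numbers of the sample labels. Coordinates are 1-based, on NCBIM37 (mm9) with GENCODE vM1. Python 3.11.15, numpy 2.4.6, pyfaidx 0.9.0.4, matplotlib 3.10.9, samtools 1.23.1 and blastn 2.17.0 (e-value up to 1e-10) were used, and the functions for joining, ranks and words were tested on simulated data. No significance test was run. The 5 genes, the gene lists and the words were chosen with earlier results of these data known. The genes named are the 5 genes, the gene that hosts each region or has the nearest coding start site, and listed genes with a region in all 3 lists. Results for 1 of the lists are not reported here on their own. Further listed genes with a region are named after their values were seen. Alternatives were limits of 100 and 500 kb or distance to the gene start, q under 0.01 and 1e-05, 50% reciprocal overlap, summits within 100 bp, ranks by −log10 q, consensus regions alone, means, other windows, and each replicate left out.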

Additional observations from a re-analysis of the deposited data

How the results depend on the processing

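The 7 regions with peaks in at least 2 lists fell to 4 at q under 1e-05, the Daam1 intronic, Parvb and Capzb regions keeping only the peak of replicate 2, while 207 (74.2%) of all 279 shared regions kept peaks in at least 2 lists. They numbered 4 to 5 when 1 replicate was left out, 4 without replicate 1 and 4 without replicate 2, while of all 279 shared regions the share that kept 2 lists was 86.0% with replicate 1 left out, 34.4% with replicate 2 left out and 46.2% with replicate 3 left out. Fewer lists cannot give more shared regions, and no difference between the 7 regions and the rest was tested. TGACAG was in 4 windows of 500 bp in place of 1 of 300 bp, and in 1 to 2 windows when 1 replicate was left out, with 2 without replicate 2. Listed genes with a region in reach numbered 18 in place of 32 at a limit of 100 kb and 16 with regions in at least 2 lists, and 20 to 32 when 1 replicate was left out, with 20 without replicate 2, the longest list. These counts include the 5 chosen genes. Without the 5 genes and the 7 regions they were 13 (11.5%, against 7.23% of the other protein-coding genes), 10 (8.85%, against 8.27%) and 14 (12.4%, against 9.65%) of 113. The number of regions, 7, was 6 at 100 kb and 8 at 500 kb. The median percentile of 56.5 was 47.6 by −log10 q and 38.9 to 64.0 when 1 replicate was left out. No paired analysis was possible because there was 1 condition. Reads per peak are unknown, untagged embryos were not analysed here, and the 3 lists differ in length, so a missing peak does not show that a region was unbound in that replicate. The shares without the 5 genes and the 7 regions, and those over all genes and regions at each setting, were chosen after seeing the data.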
